A study of Tupaia belangeri with 8 samples.

Results

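miR-122-5p and miR-486-3p, a liver and serum miRNA and a red cell miRNA, are described here. Both were taken by name (tch-miR-122-5p and tch-miR-486-3p) from a table listing 384 miRNAs, 159 with known names and 225 predicted ones. The samples are primary neurons from the brain of neonatal tree shrews (Tupaia belangeri), and the small RNA of 8 libraries was sequenced. The 4 METH libraries came from cells given 5 µl of a methamphetamine stock, labelled 100 mmol, in 995 µl of complete medium. The 4 PBS libraries came from control cells given 1 ml of the same medium with no drug. Both groups were washed with PBS at 80% confluency, grown in Neurobasal-A with 15% fetal bovine serum and 2% B-27, and collected after 24 h. Nothing in the labels tells whether samples of 1 group are separate animals or culture preparations. The p-values below therefore rest on the variation among these samples, part or all of which may be technical.

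miR-122 is the dominant miRNA of hepatocytes in mammals, where it maintains lipid and cholesterol metabolism, and it is released into blood plasma. In the cell culture literature it is one of the miRNAs carried over from fetal bovine serum. miR-486 lies within an intron of the ankyrin gene ANK1 in human and mouse, rises during red cell maturation and is also made in muscle, and its 5p arm is usually the more abundant one. Neither miRNA is a marker of neurons.

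Total counts were between 339243 and 778888 in the libraries numbered 1 to 3 of both groups, and were 6702946 in METH 4 and 7334789 in PBS 4. Of 10 neuron miRNAs listed, 4 matched a name in the table (miR-9-5p, miR-128, miR-129-5p and miR-218-5p), and together they held 19113 to 90354 TPM in METH and 18608 to 91525 TPM in PBS (TPM are deposited values that sum to the same total in each library, with no length term). Of these neuron miRNAs, miR-9-5p alone held 15793 to 71931 TPM in METH and 11977 to 83062 TPM in PBS. Fibroblast and smooth muscle miRNAs, with 3 of 6 listed matched, together held 13571 to 59377 TPM in METH and 16689 to 60941 TPM in PBS. Astrocyte miRNAs, with 3 of 3 listed matched, together held 1154 to 3707 TPM in METH and 1261 to 2979 TPM in PBS. The neuron-restricted miR-124 matched no name in the table. For all lists, names were matched exactly, with or without an arm suffix, and no sequences were compared. A lettered name or one of the 225 predicted miRNAs would thus be missed, and an unmatched miRNA is not shown to be absent. On the leading principal component of log2 CPM (counts scaled by library size), with 65.7% of the variance, METH 3, PBS 1 and PBS 3 were separated from the remaining 5 libraries. Each result below is therefore also given without them where it changes.

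miR-122-5p was at most at 28.0 TPM in the METH libraries and at 74.7 TPM or more in 3 of the 4 PBS libraries. It was at 28.0, 27.9, 2.95 and 1.49 TPM in METH 1 to 4, from 18, 19, 1 and 10 reads. In PBS 1 to 4 it was at 9.51, 109, 74.7 and 132 TPM, from 5, 85, 29 and 967 reads. On the TPM scale the METH libraries all lay below PBS 2, PBS 3 and PBS 4, and the groups overlapped through PBS 1, which was below METH 1 and METH 2. On normalised CPM, which are scaled by TMM factors, METH 1 at 37.7 came next to PBS 3 at 40.6.

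Counting error alone leaves some of this order undecided. The exact 95% interval of PBS 2 (87.2 to 135 TPM) overlapped those of PBS 4 (124 to 140 TPM) and PBS 3 (50.0 to 107 TPM), as did those of METH 1 (16.6 to 44.2 TPM), METH 2 (16.8 to 43.6 TPM) and PBS 1 (3.09 to 22.2 TPM). METH 3, with a single read, had an interval of 0.0746 to 16.4 TPM, which covers that of METH 4 (0.715 to 2.74 TPM). In TPM no METH interval reached that of PBS 2, PBS 3 or PBS 4. This depends on the scale, because on normalised CPM METH 1 at 37.7 and PBS 3 at 40.6 lay close together. The labels' protocols mention no molecular identifiers, so these intervals cover counting error only.

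The mean level of miR-122-5p was 15.1 ± 14.9 TPM in METH and 81.3 ± 53.3 TPM in PBS (SD, n = 4 each). In edgeR the log2 fold change was −2.43 (SE 1.17, 95% interval −5.01 to 0.14), a METH level 5.41-fold lower, with an unadjusted p of 0.0615 and an adjusted p of 0.999 over 166 miRNAs. The difference did not pass the test. In TPM 4 of 4 METH libraries lay below the PBS mean, but so did PBS 1 at 9.51 and PBS 3 at 74.7. The interval in linear terms ran from 0.0311 to 1.10 times the PBS level. edgeR called 0 of the 166 miRNAs tested (0%) as higher and 0 (0%) as lower, and its unadjusted p was under 0.05 for 0. DESeq2 on the same miRNAs called 0 too. Its unadjusted p was under 0.05 for 1 of them, miR-122-5p (DESeq2 log2 fold change −2.54, SE 1.06, unadjusted p = 0.0163, adjusted p = 0.996). miR-122-5p had the most negative log2 fold change and the lowest p of the 166, while the median of all 166 was 0.21. With no filter the log2 fold change was −2.52 (95% interval −4.94 to −0.10), with an unadjusted p of 0.0422 in edgeR and an adjusted p of 0.999 over 384 miRNAs. In that fit 7 miRNAs had a more negative log2 fold change, and its p was the 9th lowest.

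An exact permutation test gave the same outcome. The mean of log2(TPM + 1) was 3.25 ± 1.87 in METH and 5.87 ± 1.68 in PBS (SD, n = 4 each), a difference of −2.62 (exact two-sided permutation p = 0.114, 70 splits). With the p-values of all 384 miRNAs adjusted together, the adjusted p was 1 (exact permutation). Of these 384, 2 (0.521%) had METH below PBS with no overlap in TPM, and miR-122-5p was not one of them.

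**Figure D1:**
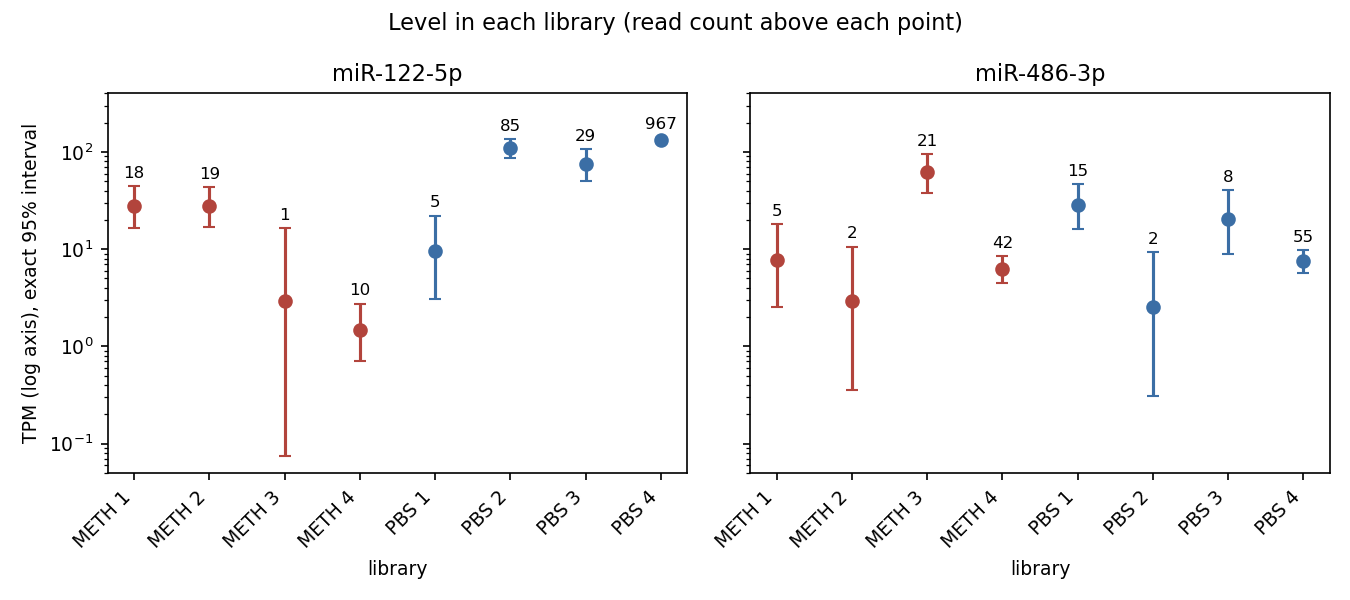
Level of miR-122-5p (left) and miR-486-3p (right) in each library, in TPM on a log axis, with METH in red and PBS in blue. Bars are exact 95% intervals for counting error, and the number above each point is its read count. miR-122-5p lies at most at 28.0 TPM in METH and in PBS 1 and at 74.7 to 132 TPM in PBS 2, PBS 3 and PBS 4, and miR-486-3p is highest in METH 3, PBS 1 and PBS 3.

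In TPM of miR-122-5p, the deepest library of each group held that group's extreme, with METH 4 the lowest and PBS 4 the highest of the 8. On normalised CPM PBS 2 was the highest, at 168 against 156 in PBS 4. METH 4 held 10 reads of miR-122-5p and PBS 4 held 967, at like depths. The METH 4 level was 0.0113 times that of PBS 4 (exact 95% interval 0.00541 to 0.0209 for counting error, a comparison of these 2 libraries and not of the treatments). PBS 4 alone gave 89.0% of the 1086 PBS reads of miR-122-5p. Without both deep libraries the edgeR log2 fold change was −1.61 (SE 1.28, edgeR adjusted p = 0.997). Without METH 3, PBS 1 and PBS 3 it was −2.90 (SE 1.03, edgeR adjusted p = 0.983).

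Within a group, miR-122-5p varied far beyond counting error. The highest library was 18.8 times the lowest in METH and 13.9 times in PBS. The variance of its read counts around a shared level was 45.1 times that of Poisson counting in METH and 23.1 times in PBS. In the libraries that stood apart, it was at 2.95 TPM in METH 3, against 9.51 in PBS 1 and 74.7 in PBS 3. In the other 5 it was at 28.0, 27.9 and 1.49 TPM in METH 1, METH 2 and METH 4, against 109 and 132 in PBS 2 and PBS 4. In TPM the METH values lay below the PBS values on both sides of this division. For METH 3 and PBS 1, with 1 and 5 reads, counting error leaves this order undecided. Their exact intervals, 0.0746 to 16.4 TPM and 3.09 to 22.2 TPM, overlapped. Either side held too few libraries for a test of its own to reach an exact p under 0.05. The division was drawn from the same data, and how many of all miRNAs kept such an order on both sides was not counted. With so few libraries such an order can arise by chance, so it is not independent evidence of a lower METH level.

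miR-486-3p was rare in both groups and had no direction that held. It was at 7.78, 2.94, 61.9 and 6.27 TPM in METH 1 to 4, from 5, 2, 21 and 42 reads. In PBS 1 to 4 it was at 28.5, 2.57, 20.6 and 7.50 TPM, from 15, 2, 8 and 55 reads. The groups overlapped throughout, with METH 3 the highest of the 8 and PBS 2 the lowest. METH 3, PBS 1 and PBS 3, the libraries that stood apart, were the highest 3, and the other 5 lay between 2.57 and 7.78 TPM. On normalised CPM METH 3 was at 55.3 and PBS 1 at 19.3, but METH 1, at 10.5, was next to PBS 3 at 11.2. Epithelial miRNAs, with 4 of 5 listed matched, summed to 4.41 to 513 TPM in METH and 9.82 to 549 TPM in PBS, with METH 3 and PBS 1 highest. miR-141-3p of that list had 2 reads in PBS 4 and 0 elsewhere. Their part in the level of miR-486-3p was not tested.

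Most neighbours in this order could not be told apart by counting. The exact 95% interval of METH 3 was 38.3 to 94.6 TPM and overlapped those of PBS 1 (16.0 to 47.0 TPM) and PBS 3 (8.89 to 40.6 TPM). METH 1 (2.52 to 18.1 TPM) in turn overlapped PBS 3. In the deep libraries, METH 4 (4.52 to 8.47 TPM) and PBS 4 (5.65 to 9.76 TPM) overlapped, with a ratio of 0.836 (exact 95% interval 0.546 to 1.27 for counting error).

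The mean of miR-486-3p was 19.7 ± 28.2 TPM in METH and 14.8 ± 11.9 TPM in PBS (SD, n = 4 each), while the medians were 7.02 and 14.0 TPM in METH and PBS. It lay below the count filter, so its log2 fold change comes from edgeR with no filter, and was 0.44 (SE 0.90, 95% interval −1.45 to 2.32, edgeR adjusted p = 0.999 over 384 miRNAs). That fit called 0 of 384 (0%) in either direction, and 10 (2.6%) had unadjusted p-values under 0.05. DESeq2 with no filter called 0, and 2 had unadjusted p-values under 0.05. Without METH 3 the log2 fold change was −0.52, and without METH 3, PBS 1 and PBS 3 it was −0.05, so 1 library set its sign. On log2(TPM + 1) the difference of means was −0.07 for METH minus PBS (n = 4 each; exact permutation, two-sided p = 0.914, adjusted p = 1). The interval from edgeR, not adjusted for the number of miRNAs, spans 0.365 to 5.00 times the PBS level. At this depth and spread a difference within that range was not excluded.

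The 2 miRNAs did not keep one ratio over the libraries. Reads of miR-122-5p per read of miR-486-3p were 3.6, 9.5, 0.0476 and 0.238 in METH 1 to 4. In PBS 1 to 4 they were 0.333, 42.5, 3.63 and 17.6. miR-122-5p was thus the more abundant one in METH 1, METH 2, PBS 2, PBS 3 and PBS 4, and miR-486-3p in METH 3, METH 4 and PBS 1. The log2 ratio with 0.5 added to each count was −0.29 ± 3.18 in METH and 2.38 ± 2.93 in PBS (SD, n = 4 each). The difference of −2.67 did not exceed the spread (exact two-sided permutation p = 0.229, 70 splits). This ratio needs no scaling factor, because both counts come from one library.

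**Figure D2:**
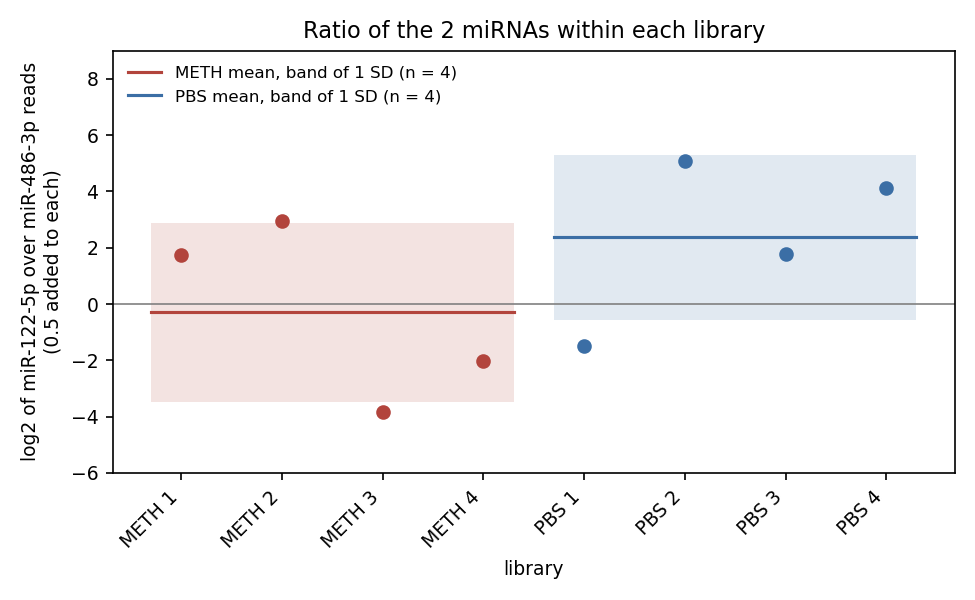
Log2 of miR-122-5p reads over miR-486-3p reads in each library, with 0.5 added to each count, METH in red and PBS in blue; lines are group means and bands 1 SD (n = 4 each). The points run from −3.84 in METH 3 to 5.10 in PBS 2, and the bands of METH and PBS overlap.

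The profiles of the 2 miRNAs over the 8 libraries were also unlike. Likeness was measured as the root mean square difference of log2 normalised CPM, after centring each miRNA on its own mean. For miR-486-3p, which lay below the count filter, these values used the TMM factors of the fit with no filter. For all others they used those of the filtered fit, so distances from miR-486-3p also include this difference in scaling. Between miR-122-5p and miR-486-3p it was 2.73 log2 units, and 140 of the other 165 miRNAs that passed the filter were closer to miR-122-5p than miR-486-3p was.

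The profile nearest to miR-486-3p was that of the predicted miRNA novel_104, at 0.171 log2 units, against a median of 1.15 over the 165. It was followed by the predicted novel_101 at 0.318 and by miR-127-3p at 0.354, a miRNA of the imprinted DLK1-DIO3 region. novel_104 was at 110, 47.0, 413 and 78.5 TPM in METH 1 to 4 and at 279, 34.7, 270 and 89.7 TPM in PBS 1 to 4. As with miR-486-3p, METH 3, PBS 1 and PBS 3 were its highest 3 libraries in TPM. On the centred log2 CPM, METH 3 and PBS 1 were the highest for both, and METH 1 was above PBS 3, at 0.32 against 0.30 for novel_104 and at 0.10 against 0.04 for miR-486-3p. With the factors of the filtered fit, miR-486-3p had the reverse order, with PBS 3 at 11.2 and METH 1 at 10.5 normalised CPM. The log2 values of miR-486-3p are drawn towards each other by the added prior count, because it had few reads.

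For miR-122-5p no profile came as near. The nearest were miR-7-5p at 1.68 log2 units, a neuroendocrine miRNA, let-7a-5p at 1.69, a differentiation miRNA, and miR-100-5p at 1.75, against a median of 2.42. miR-7-5p was at 23598, 9845, 2258 and 1641 TPM in METH 1 to 4, and at 2544, 19182, 5610 and 2829 TPM in PBS 1 to 4. It resembled miR-122-5p in being high in PBS 2 and low in METH 3, METH 4 and PBS 1. PBS 4 was high only for miR-122-5p of this pair. On the centred log2 CPM, miR-7-5p and miR-122-5p also differed in METH 1, at 2.57 and 0.71, and in PBS 3, at −0.81 and 0.81.

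**Figure D3:**
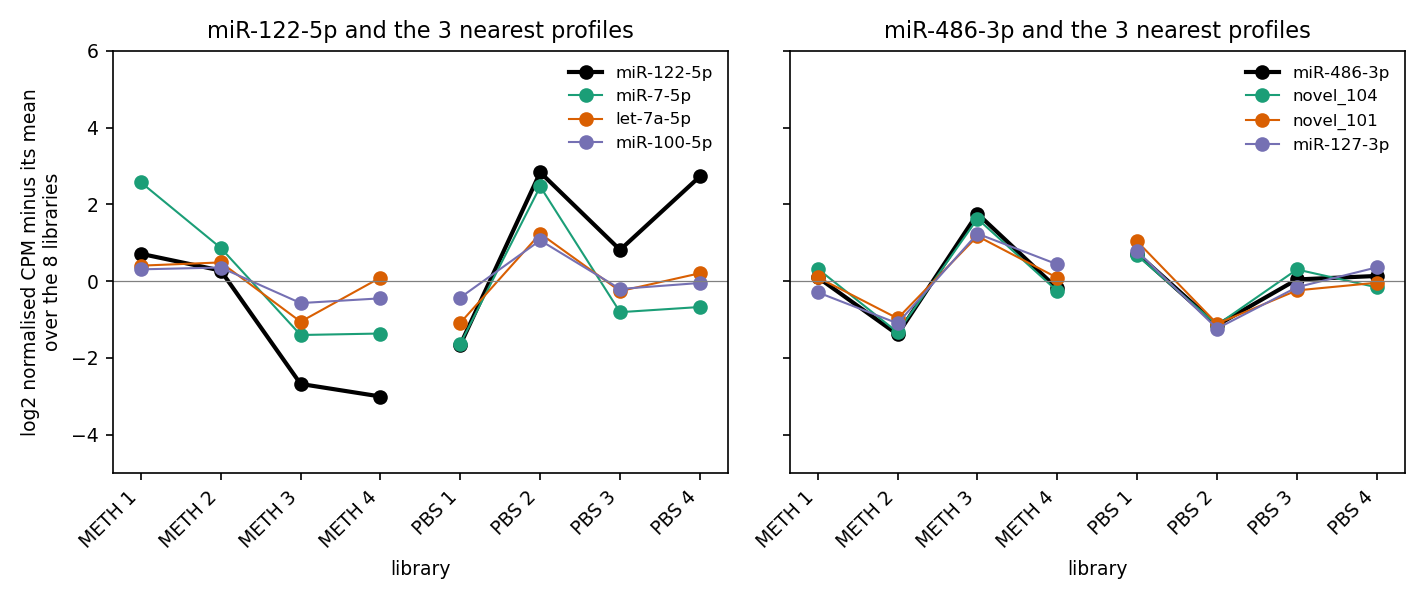
Log2 normalised CPM minus its mean over the 8 libraries, for miR-122-5p (left, black) and miR-486-3p (right, black), each with the 3 miRNAs of nearest profile in colour. The lines join libraries of a group only for legibility. The miR-486-3p profile lies 0.171 log2 units from its nearest neighbour and that of miR-122-5p 1.68. The miR-486-3p profile uses TMM factors of the fit with no filter, and the others those of the filtered fit.

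None of the miRNAs of the blood and serum lists passed the test between METH and PBS, miR-122-5p and miR-486-3p included. Of 8 red cell miRNAs listed, 4 matched a name in the table and 3 were tested, and 0 passed in either direction (0% of all 166 did). Their median log2 fold change was 0.14, against 0.21 over all 166. It was −0.04 when scaled by DESeq2 size factors, −0.05 by upper quartiles and −0.29 by total counts. Without METH 3 it was −0.63, and without METH 3, PBS 1 and PBS 3 it was −0.03. The red cell miRNAs miR-451 and miR-144, which define the lineage, matched no name in the table, which does not show that they were absent.

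miR-92a-3p, of the miR-17-92 cluster and abundant in red cells, was at 2947, 4033, 48679 and 2605 TPM in METH 1 to 4. In PBS 1 to 4 it was at 26135, 2285, 44534 and 3593 TPM. As with miR-486-3p, the high libraries in TPM were METH 3, PBS 1 and PBS 3, and the groups overlapped (log2 fold change 0.14, SE 0.96, edgeR adjusted p = 0.999). miR-25-3p, which shares its seed family, averaged 3958 ± 3757 TPM in METH and 4828 ± 3475 TPM in PBS (SD, n = 4 each), with the same 3 libraries highest. miR-363-3p of that family averaged 3461 ± 3204 TPM in METH and 3218 ± 2243 TPM in PBS, with METH 1 highest at 8050.0 TPM.

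Of 7 liver and serum miRNAs listed, all matched a name and 5 were tested, miR-122-5p among them, and 0 passed in either direction. Their median log2 fold change was 0.03 (−0.17 by DESeq2 size factors, −0.07 by upper quartiles and −0.32 by total counts), and 0.08 without miR-122-5p. Leaving out METH 3 gave a median of −0.81, and leaving out METH 3, PBS 1 and PBS 3 gave −0.21. The 3 most abundant were miR-148a-3p, a liver and plasma miRNA, with a log2 fold change of −0.02 (SE 1.26), miR-191-5p, often used as a plasma reference, with 0.03 (SE 0.66), and miR-423-3p with 0.14 (SE 0.70).

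The values of the less abundant members were chosen for printing after they were seen. miR-192-5p, made in liver and gut epithelium, lay below the filter. It was at 7.78, 13.2, 8.84 and 14.5 TPM in METH 1 to 4 and at 3.80, 26.96, 18.0 and 26.6 TPM in PBS 1 to 4. In PBS its level was high in PBS 2 and PBS 4, intermediate in PBS 3 and low in PBS 1, and miR-122-5p had the same 3 libraries above PBS 1. In METH it was highest in METH 4, where miR-122-5p was lowest. Its difference did not pass (edgeR with no filter, log2 fold change −0.84, SE 0.92, adjusted p = 0.999). miR-194-5p, made with miR-192 in liver and gut, was at 9.33, 27.9, 11.8 and 29.8 TPM in METH 1 to 4 and at 13.3, 15.4, 18.0 and 29.3 TPM in PBS 1 to 4, with a log2 fold change of 0.21 (SE 0.67). miR-885-3p had a log2 fold change of 0.42 with no filter (SE 1.46) and was highest in METH 3, at 20.6 TPM, and in PBS 1, at 19.0 TPM.

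Leukocyte and platelet miRNAs gave 4 matches out of 7 listed, with 3 tested and 0 passing. Their median log2 fold change was 0.06, and under the same 3 scalings −0.09, −0.10 and −0.41. Leaving out METH 3 gave −0.49, leaving out PBS 2 gave −0.10 and leaving out PBS 4 gave −0.11. Without METH 3, PBS 1 and PBS 3 the median was 0.27. miR-155-5p, an activation miRNA of lymphocytes and macrophages, had a log2 fold change of 0.14 (SE 0.76). miR-146a-5p, which dampens NF-kB signalling, had 0.06 (SE 1.24), and miR-342-3p, a B and T cell miRNA, had 0.06 (SE 0.69). miR-142, restricted to blood cells, had 36, 0, 0 and 5 reads in METH 1 to 4 and 0, 0, 3 and 8 reads in PBS 1 to 4. In the libraries with the highest TPM of miR-486-3p, miR-142 was thus at 0 in METH 3 and PBS 1, which allows up to 8.84 and 5.70 TPM, and at 7.72 TPM in PBS 3. Those 3 libraries were also the highest for miR-155-5p, at 5344 TPM in METH 3, 3110.1 in PBS 1 and 4778 in PBS 3, against at most 883 in the other 5. miR-342-3p had 118 TPM in METH 3, 129 in PBS 1 and 116 in PBS 3, and at most 50.0 in the other 5. For miR-146a-5p of the same list METH 3 was not among the highest, at 410 TPM against 3390 in METH 1. The order was not particular to this list. The 3 libraries were set apart by the leading principal component of the same data. How many of all miRNAs kept this order was not counted, so it is not a trait of blood miRNAs. miR-191-5p of the liver and serum list had at least 12887 TPM in those 3 libraries and at most 4436 in the other 5, and miR-423-3p at least 9863 and at most 3222. The part of blood cells in the level of miR-486-3p was not tested. miR-223 and miR-150 matched no name in the table.

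**Figure D4:**
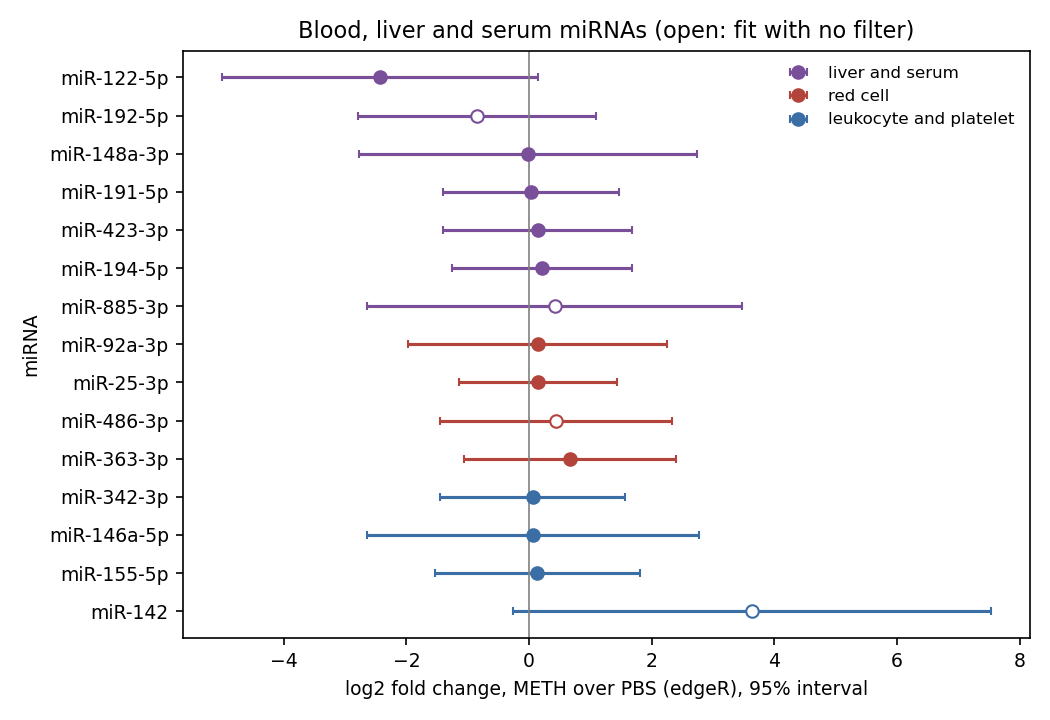
Log2 fold change of METH over PBS with its 95% interval for the liver and serum, red cell, and leukocyte and platelet miRNAs (edgeR; filled points from the fit with the count filter, open points from the fit with no filter). Every interval includes 0; miR-122-5p, at −2.43, lies lowest and miR-142, at 3.63 with most of its reads in METH 1, highest.

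Of the miRNAs listed as carried over from fetal bovine serum in culture, miR-122 was the 1 of 4 that matched a name in the table. The others were miR-451, miR-1246 and miR-223. No muscle miRNA listed (miR-1, miR-133a, miR-133b, miR-206 and miR-499) matched a name by its stem. Both groups received the same serum-containing medium, and whether reads of miR-122-5p or miR-486-3p came from serum, from blood cells or from the cultured cells was not tested. In these bulk libraries, fewer cells of a type and less RNA per cell cannot be told apart.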

How the data were processed

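The authors deposited 1 table of raw read counts and TPM, per the file headers. Each deposited TPM equals the count over the library total, scaled by 1 constant (largest difference 4.51e-05). For the aligner, the miRNA reference and the build: not given in the sources used here. Columns were matched to samples by description and title, and 0 columns were unmapped.

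METH was compared with PBS by edgeR 4.0.16 in R 4.3.3 (TMM factors, quasi-likelihood F test with robust estimation, Benjamini-Hochberg adjustment, threshold 0.05). filterByExpr (minimum count 10, minimum total 15) kept 166 miRNAs; miR-486-3p lay below it and was fitted with no filter. Normalised CPM divide counts by TMM-scaled library sizes, with a prior count of 2 on the log2 scale. The log2 profile of miR-486-3p used the TMM factors of the fit with no filter. SE and intervals come from the F statistic. Exact permutation tests used 70 splits, whose smallest possible value is 0.0286. Intervals of single libraries are Clopper-Pearson, at 95%; a count of 0 was given a limit of 3 counts. The functions were tested on simulated data. DESeq2 1.42.0, other scalings, filters and left-out libraries were alternatives.

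The miRNAs named are both members, up to 3 of each list with the highest mean normalised CPM, and the 3 nearest profiles of each member; others are named as matched or unmatched list entries. The members and lists were chosen with earlier results of these data known.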

Additional observations from a re-analysis of the deposited data

Results flagged for a closer look

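Within a group of 4 libraries, 1 library lay far from the other 3 in 9 of 26 sets of values examined. Chance gives about 5% for normally distributed values, which these need not be. The sets share libraries and are not independent, and METH 3 gave 6 of the 9, so no excess over chance is shown. miR-486-3p was at 61.9 TPM in METH 3, against at most 7.78 in the other METH libraries. METH 3 stood alone in METH in the same way for miR-92a-3p (48679 TPM), miR-191-5p (16522 TPM), miR-423-3p (12669 TPM), miR-25-3p (9577 TPM) and miR-155-5p (5344 TPM). METH 1 did so for miR-146a-5p, at 3390.5 TPM. The total count stood apart in METH 4, at 6702946, and in PBS 4, at 7334789. No value of miR-122-5p was set apart in this way in either group.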

How the results depend on the processing

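The log2 fold change of miR-122-5p stayed below 0 and did not pass the test in all 19 alternatives run. It was −2.55 by DESeq2 size factors, −2.50 by upper quartiles and −2.44 by total counts, and between −3.19 (without METH 1) and −1.96 (without PBS 2) with 1 library left out. Its lowest adjusted p, 0.196 (log2 fold change −2.99), came without METH 3, PBS 1 and PBS 3 and with no filter, and the highest was 1.00. On log2(TPM + 1) its difference ranged from −3.44 (without PBS 1) to −1.97 (without METH 4) with 1 library left out. It was −1.57 without both libraries numbered 4 and −3.24 without METH 3, PBS 1 and PBS 3. The difference of the log2 ratio to miR-486-3p ranged from −3.96 (without PBS 1) to −1.48 (without METH 3). Without METH 3, PBS 1 and PBS 3 that of the ratio was −3.71.

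miR-486-3p changed sign. Its edgeR log2 fold change ranged from −0.52 (without METH 3) to 0.77 (without METH 2), and was −0.051 without METH 3, PBS 1 and PBS 3. On log2(TPM + 1) the difference of −0.07 became 0.013 with a pseudocount of 10, 0.22 with TMM-scaled CPM and 0.20 without METH 3, PBS 1 and PBS 3, and ranged from −0.90 (without METH 3) to 0.43 (without METH 2). The cause was not tested. edgeR and DESeq2 called 0 miRNAs in all 17 alternatives.

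The labels give no pairing by number. Deviations of same-numbered libraries from their group means correlated at −0.25, 0.54, 0.77 and 0.89 for numbers 1 to 4. Libraries numbered 2, 3 and 4 each correlated best with their own number, METH 3 only narrowly (0.772, against 0.770 with PBS 1). METH 1 and PBS 1 each correlated best with a library of another number, so the numbers were not taken as pairs in the main fit. Whether same-numbered libraries shared a batch was not tested. With the number as a replicate block, miR-122-5p had −2.80 (edgeR adjusted p = 0.995), and −2.92 with no filter (edgeR adjusted p = 0.517), and miR-486-3p had 0.14. Exact sign flips within numbers gave p = 0.25 for miR-122-5p, 0.75 for miR-486-3p and 0.375 for the ratio (n = 4), where 16 flips allow no p below 0.125. For miR-122-5p, the fits that join no filter with a block or with fewer libraries were chosen after seeing the data. In the shallower 6 libraries miR-486-3p had 2 to 21 reads and miR-122-5p 1 to 85, and the variance of miR-486-3p was 40.7 times that of counting in METH and 11.3 times in PBS.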
